A study of Homo sapiens with 4 samples.

Results

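The genes of cholesterol synthesis and of its control by the transcription factor SREBP2 were followed in HepG2, a human liver tumour cell line, with and without depletion of the histone demethylase LSD1. The 28 genes were taken by name, and a gene was read from probe sets that the platform annotation gives to that gene alone. Such probe sets were found for 26 of the 28, among 19775 genes on the array. Squalene synthase, FDFT1, had none, and CYP51A1 was covered only by probe sets shared in the annotation with a second gene, so neither has a value here. The 26 genes had 58 probe sets, 15 genes having more than 1 and 11 having 1.

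The study asked about the role of LSD1 in the metabolism of hepatic cancer cells. All 4 arrays carried RNA of HepG2 cells from high-glucose medium (25 mM glucose, 10% serum), transfected with siRNA at about 50% confluence and cultured for 4 days. The control group was 2 arrays of cells given siRNA against GL3. The knockdown group was 2 arrays of cells given siRNA against LSD1, siRNA-1 on one array and siRNA-2 on the other, so each siRNA was read on 1 array. All cells were of a single tumour-derived line, and the labels do not say that arrays came from separate cultures. The spread behind each p-value is therefore that between arrays, and that of the controls could be purely technical. Where the 2 LSD1 siRNA arrays form a single group, the spread also holds the difference between the siRNAs.

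Cells build cholesterol from acetyl-CoA through mevalonate, the isoprenoid diphosphates, squalene and lanosterol. SREBP2, encoded by SREBF2, is held in the endoplasmic reticulum with its escort SCAP by the INSIG proteins when sterols are plentiful. When sterols fall, the SREBP2 and SCAP pair moves to the Golgi, SREBP2 is cut, and its released part activates the genes of the pathway from sterol regulatory elements in their promoters, usually beside sites for NF-Y (the CCAAT box) and SP1 (GGGCGG). The liver is a main site of this synthesis. INSIG1 and SREBF2 itself are textbook targets of SREBP2, whereas MYLIP is a target of the sterol receptor LXR.

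The promoters below are shown because these genes share a control element by textbook account, while their values on the arrays went different ways: SREBF2, HMGCS1, LSS and STARD4 rose with siRNA-2, and INSIG1 and MSMO1 did not. Each line gives the 250 bases before a RefSeq start site (GRCh38.p14), written 5′ to 3′ on the gene's strand. Capitals mark a core form of the sterol regulatory element, TCACNCCAC, and the CCAAT box, read on both strands so that ATTGG is the box on the opposite strand.
SREBF2 (chr22:41832855-41833104, + strand): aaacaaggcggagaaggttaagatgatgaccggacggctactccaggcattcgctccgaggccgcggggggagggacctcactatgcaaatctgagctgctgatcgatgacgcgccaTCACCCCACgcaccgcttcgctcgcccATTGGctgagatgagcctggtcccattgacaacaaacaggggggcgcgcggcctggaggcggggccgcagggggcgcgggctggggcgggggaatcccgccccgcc
HMGCS1 (chr5:43313413-43313662, - strand): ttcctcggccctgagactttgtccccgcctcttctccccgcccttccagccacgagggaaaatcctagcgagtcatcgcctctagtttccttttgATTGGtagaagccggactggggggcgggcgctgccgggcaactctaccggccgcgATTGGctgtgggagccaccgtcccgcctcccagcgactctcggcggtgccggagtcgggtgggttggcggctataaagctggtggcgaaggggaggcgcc
LSS (chr21:46228775-46229024, - strand): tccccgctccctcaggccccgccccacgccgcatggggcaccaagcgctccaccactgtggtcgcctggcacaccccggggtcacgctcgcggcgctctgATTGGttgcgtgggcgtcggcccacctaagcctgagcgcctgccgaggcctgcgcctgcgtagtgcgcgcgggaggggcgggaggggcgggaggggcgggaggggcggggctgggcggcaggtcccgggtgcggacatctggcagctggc
STARD4 (chr5:111512536-111512785, - strand): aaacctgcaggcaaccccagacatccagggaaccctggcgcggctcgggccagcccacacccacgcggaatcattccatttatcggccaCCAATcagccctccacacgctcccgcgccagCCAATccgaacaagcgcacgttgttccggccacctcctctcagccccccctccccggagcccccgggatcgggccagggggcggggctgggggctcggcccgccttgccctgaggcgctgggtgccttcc
INSIG1 (chr7:155297628-155297877, + strand): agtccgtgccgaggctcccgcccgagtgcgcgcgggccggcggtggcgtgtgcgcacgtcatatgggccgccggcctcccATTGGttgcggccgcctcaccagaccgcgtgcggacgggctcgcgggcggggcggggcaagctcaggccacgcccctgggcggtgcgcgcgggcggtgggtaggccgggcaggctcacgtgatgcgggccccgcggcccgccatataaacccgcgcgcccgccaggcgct
MSMO1 (chr4:165327419-165327668, + strand): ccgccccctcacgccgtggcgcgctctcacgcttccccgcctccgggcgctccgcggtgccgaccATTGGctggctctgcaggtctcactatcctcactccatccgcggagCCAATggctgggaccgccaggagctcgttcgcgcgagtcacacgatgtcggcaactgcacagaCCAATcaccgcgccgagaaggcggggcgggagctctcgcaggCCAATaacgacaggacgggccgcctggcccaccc

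The element TCACNCCAC lay in the SREBF2 window alone among the members, at positions -133 to -125 relative to the start. Of all 27305 genes with a window, 297 held it (1.09%). A CCAAT box was present for 20 of the 25 members with a window (80%), against 37% of all genes. GGGCGG was present for 22 of 25 (88%) against 46.2% of all genes, and the E-box CACGTG for 3 of 25 (INSIG1, SC5D and SCAP) against 7.73%. These are matches of letters in a short window and do not show that a factor binds. Only 1 form of the sterol regulatory element was searched, so a window without it may still hold another form. INSIG1, with 1 CCAAT box, and MSMO1, with 4, hold the box like the genes that rose. The split of measured members by the box was made after the values were seen. The median difference of siRNA-2 from control was 1.14 for the 20 with the box and 0.51 for the 4 without it (INSIG2, LBR, PMVK and SCAP). In these groups 16 of 20 (80%) and 3 of 4 (75%) rose. Over all genes with a window 15.1% with the box and 13.4% without it rose in the same test. The medians of those genes were -0.01 with the box and -0.02 without it.

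Values are RMA values on a scale taken as log2, which the authors centred so that the median of the 4 arrays is 0 for every probe set. Differences between arrays are therefore given, and levels are not. A stand-in for brightness, taken from the rounding step of the deposited numbers, put the probe set used for 20 members at 8 or above and for 6 members between 4 and 8 on the original log2 scale. The probe sets of 6 hepatocyte markers (ALB, AFP, TTR, FGB, AHSG and TF) were all at 8 or above, and those of the leukocyte markers PTPRC and CD3E below 4. KDM1A, the gene of LSD1, read 1.23 and 1.17 on the control arrays, -1.55 under siRNA-1 and -1.17 under siRNA-2. The spread over all probe sets (SD) was 0.164 and 0.154 on the controls, 0.197 under siRNA-1 and 0.384 under siRNA-2. Hybridization spike-ins read -0.69 and -0.61 on the controls, 0.61 under siRNA-1 and 0.65 under siRNA-2. The 5′ minus 3′ difference of ACTB probe sets was 0.34 and 0.23 on the controls, -0.26 under siRNA-1 and -0.38 under siRNA-2. The same difference for GAPDH was 0.13 and 0.04 on the controls, -0.04 under siRNA-1 and -0.14 under siRNA-2, and poly-A spike-ins read -0.33 and -0.04, then 0.13 and 0.03. Against the control mean, siRNA-2 was further from control than siRNA-1 for ACTB (-0.66 against -0.55), GAPDH (-0.22 against -0.13) and the hybridization spike-ins (1.31 against 1.26), and nearer for the poly-A spike-ins (0.22 against 0.31). The part of these measures in the results was not tested. Bulk RNA cannot tell apart more transcript per cell from more cells that carry it.

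With siRNA-2, 21 of the 26 members rose and 0 fell. Over all genes 13.6% rose and 10.4% fell in the same test, a limma model of 3 groups with Benjamini-Hochberg adjustment over 19775 genes. The median difference of the members from control was 1.10 (2.15-fold), against -0.02 over all genes. Increases ran from 0.43 for GGPS1 to 2.22 for LSS, with standard errors from 0.067 to 0.093 (1 array against 2), and adjusted p from 0.0157 to 0.042. The model takes the spread from the controls and assumes that a lone array varies like them. MVK, MSMO1, INSIG1, INSIG2 and MYLIP did not pass. The members were chosen with earlier results of these data known, so their counts beside all genes are description and no independent support. The siRNA-2 array lay above both controls for 22 members, against 40.1% of all genes, and below both for 4, against 44.6%. Of the 6 hepatocyte markers 3 rose in the same test, with a median of 0.45, and their part in the result was not tested.

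**Figure D1:**
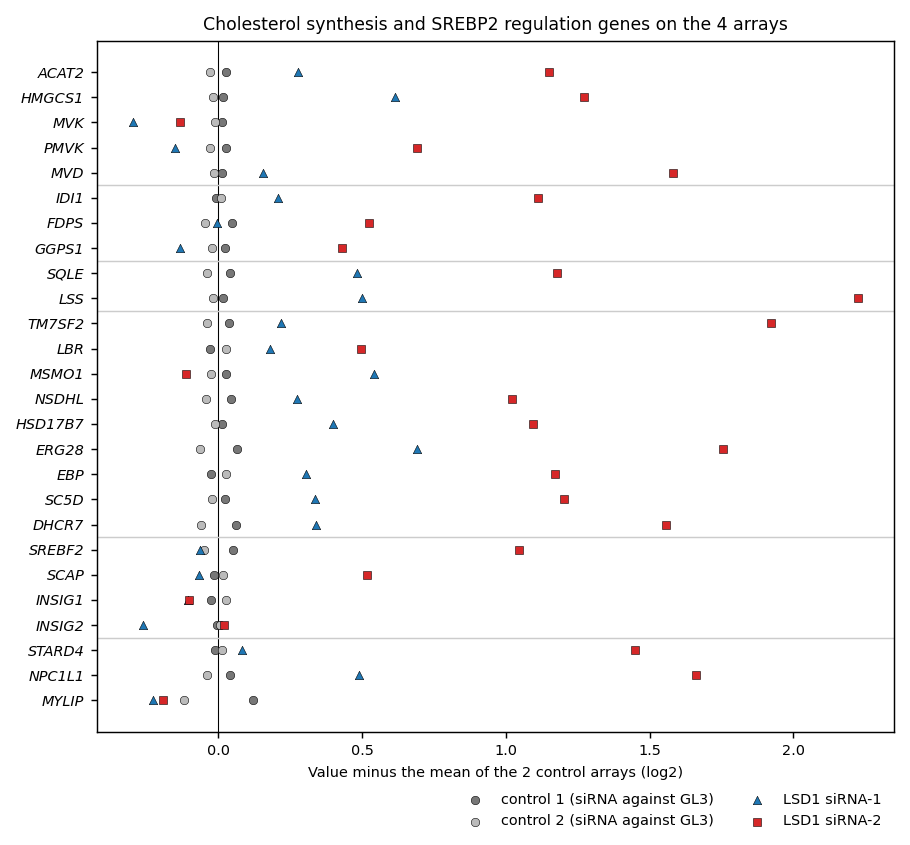
Value of each measured member on each array minus the mean of the 2 control arrays (log2, horizontal), in pathway order with lines between roles; each point is 1 array. The siRNA-2 points (squares) lie between 0.43 and 2.22 for the 21 genes that rose, and the siRNA-1 points (triangles) lie between -0.30 and 0.69.

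The first enzymes lead from acetyl-CoA to mevalonate and its phosphorylated forms. ACAT2, the cytosolic thiolase that joins acetyl-CoA units, read -0.12 and -0.18 on the control arrays, 0.12 under siRNA-1 and 0.999 under siRNA-2. HMGCS1, the cytosolic HMG-CoA synthase, read -0.30 and -0.33 on the controls, 0.30 under siRNA-1 and 0.95 under siRNA-2. For both genes the controls lay close together, siRNA-1 above them and siRNA-2 well above siRNA-1. MVD, which decarboxylates diphosphomevalonate, read -0.07 and -0.10 on the controls, 0.07 under siRNA-1 and 1.50 under siRNA-2, a 2.99-fold increase with siRNA-2 (1.58 ± 0.07, SE, adjusted p = 0.0157). PMVK, the phosphomevalonate kinase, read 0.03 and -0.03, then -0.15 under siRNA-1 and 0.69 under siRNA-2. In PMVK the siRNA-1 array lay below both controls and the siRNA-2 array above them.

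MVK, mevalonate kinase, was read by 4 probe sets that disagreed. The one that stood for the gene by the fixed order read 0.09 and 0.06 on the controls, -0.22 under siRNA-1 and -0.06 under siRNA-2, and did not pass (-0.13 ± 0.07, adjusted p = 0.246). The other three were 0.98, 1.01 and 1.17 above control with siRNA-2, and all passed when each probe set was tested on its own (adjusted p = 0.0272, 0.0445 and 0.0261). With the mean of its probe sets MVK was 0.76 above control with siRNA-2 and turned from lower to higher.

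The 3 isoprenoid enzymes all rose with siRNA-2, by 0.43 to 1.11. IDI1, the isomerase of isopentenyl diphosphate, read -0.12 and -0.10 on the controls, 0.10 under siRNA-1 and 1.003 under siRNA-2. FDPS, which makes farnesyl diphosphate, the branch point to sterols, read 0.03 and -0.07, then -0.03 under siRNA-1 and 0.50 under siRNA-2. GGPS1, which makes geranylgeranyl diphosphate for protein prenylation rather than for sterols, read 0.02 and -0.02, then -0.13 under siRNA-1 and 0.43 under siRNA-2. FDPS with siRNA-1 lay between the controls, and the siRNA-2 array was the highest for all 3 genes. FDPS (0.52 ± 0.08, adjusted p = 0.0386) and GGPS1 (0.43 ± 0.07, adjusted p = 0.042) passed narrowly, and neither passed when each probe set was tested on its own (0.0576 and 0.0655). The second GGPS1 probe set read 0.12 with siRNA-2, and GGPS1 also missed the threshold with the mean of its probe sets (0.27, adjusted p = 0.0677) and with that second probe set alone (0.12, adjusted p = 0.446). One of the 4 IDI1 probe sets read -0.31 with siRNA-2 and the other three 0.67, 1.11 and 1.24.

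The enzymes that turn squalene into lanosterol held the largest value. SQLE, squalene epoxidase, a rate-controlling oxygen-using step, read -0.22 and -0.30 on the controls, 0.22 under siRNA-1 and 0.92 under siRNA-2. LSS, lanosterol synthase, which closes the sterol rings, read -0.24 and -0.28 on the controls, 0.24 under siRNA-1 and 1.97 under siRNA-2. On these probe sets the order of arrays was the same for both genes, with no overlap of knockdown and control. Over all their probe sets the siRNA-1 difference from control ran from -0.0082 to 0.50 for LSS and from -0.06 to 0.59 for SQLE. The siRNA-1 array did not lie above both controls on all of them. LSS rose 4.67-fold with siRNA-2 (2.22 ± 0.07, 95% interval 2.01 to 2.44, adjusted p = 0.0157), and its other probe sets read 1.55 and 1.74. SQLE rose 2.26-fold (1.18 ± 0.08, adjusted p = 0.0163), and its 4 probe sets ran from 0.71 to 1.35.

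From lanosterol to cholesterol, 8 of 9 measured genes rose with siRNA-2, with a median over the 9 of 1.17. TM7SF2 and LBR encode a pair of reductases that act on the same sterol double bond, LBR being also a protein of the inner nuclear membrane that tethers chromatin. TM7SF2 read -0.09 and -0.17 on the controls, 0.09 under siRNA-1 and 1.79 under siRNA-2. LBR read -0.13 and -0.08 on the controls, 0.08 under siRNA-1 and 0.39 under siRNA-2. Both rose, TM7SF2 by 1.92 (3.79-fold) and LBR by 0.50 (1.41-fold, adjusted p = 0.035). When each probe set was tested on its own, LBR missed the threshold (adjusted p = 0.0549).

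ERG28 encodes a scaffold that holds the demethylation enzymes together, and NSDHL and HSD17B7 encode enzymes of that demethylation. ERG28 read -0.31 and -0.44 on the controls, 0.31 under siRNA-1 and 1.38 under siRNA-2. NSDHL read -0.11 and -0.20 on the controls, 0.11 under siRNA-1 and 0.86 under siRNA-2. HSD17B7 read -0.19 and -0.22 on the controls, 0.19 under siRNA-1 and 0.89 under siRNA-2. All 3 had both knockdown arrays above both controls. HSD17B7 rests on 1 probe set of the class that can match near-identical copies, and this gene has pseudogenes. A dim ERG28 probe set read -0.22 with siRNA-2, against 1.64 and 1.76 for the other two.

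The last enzymes rearrange and reduce the sterol double bonds. EBP, the sterol isomerase, read -0.19 and -0.14 on the controls, 0.14 under siRNA-1 and 1.004 under siRNA-2. SC5D, the sterol desaturase, read -0.16 and -0.20 on the controls, 0.16 under siRNA-1 and 1.02 under siRNA-2. DHCR7, the terminal reductase, read -0.14 and -0.26 on the controls, 0.14 under siRNA-1 and 1.36 under siRNA-2. On these probe sets they shared 1 order of arrays, controls lowest and siRNA-2 highest. Their increases with siRNA-2 were 1.17 ± 0.07, 1.20 ± 0.07 and 1.56 ± 0.09 (SE), and the second DHCR7 probe set read 1.88. Of the 4 EBP probe sets, one read 0.13 and the others 1.07 to 1.20.

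MSMO1, the methylsterol oxidase that works in the same demethylation step as NSDHL and HSD17B7, was the exception of this stretch. It read 0.03 and -0.03 on the controls, 0.54 under siRNA-1 and -0.11 under siRNA-2. The siRNA-1 array was the highest and the siRNA-2 array the lowest, which no other member showed. The difference of siRNA-2 from control was -0.11 with a 95% interval from -0.34 to 0.12 (adjusted p = 0.338), and that of siRNA-1 was 0.54 ± 0.07 (adjusted p = 0.0997). Its probe set, the 1 on the array named for the gene, was in the class at 8 or above.

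Among the regulators, SREBF2 read 0.05 and -0.05 on the controls, -0.06 under siRNA-1 and 1.05 under siRNA-2. SCAP read -0.02 and 0.02 on the controls, -0.07 under siRNA-1 and 0.52 under siRNA-2. For both genes the siRNA-1 array lay just below the controls, and siRNA-2 alone was above them. SREBF2 rose 2.06-fold with siRNA-2 (1.05 ± 0.08, adjusted p = 0.019) and SCAP 1.43-fold (0.52 ± 0.07, adjusted p = 0.0312). Of the other SREBF2 probe sets, one read 0.37 under siRNA-1 and 1.17 under siRNA-2, and one 0.09 and 0.10.

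The INSIG genes, which encode the retention proteins of the SCAP and SREBP2 pair, did not pass. INSIG1 read 0.04 and 0.09 on the controls and -0.04 with each LSD1 siRNA. INSIG2 read -0.0045 and 0.0045 on the controls, -0.26 under siRNA-1 and 0.02 under siRNA-2. On these probe sets INSIG1 lay slightly below both controls with either siRNA, and INSIG2 did so with siRNA-1. The 95% interval of the siRNA-2 difference was -0.33 to 0.12 for INSIG1 and -0.19 to 0.23 for INSIG2. An increase of the size seen for SREBF2 lies outside both, for these probe sets and with 1 array. The other INSIG1 probe sets read -0.10 and 0.15 with siRNA-2. No INSIG1 probe set was in the class at 8 or above, and the one at 0.15 was below 4.

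The remaining members act on sterol traffic and uptake. STARD4, a soluble carrier of cholesterol between membranes, read -0.06 and -0.04 on the controls, 0.04 under siRNA-1 and 1.40 under siRNA-2. NPC1L1, the sterol uptake transporter of gut and bile canaliculus, read -0.22 and -0.30 on the controls, 0.22 under siRNA-1 and 1.40 under siRNA-2. MYLIP, the ubiquitin ligase that marks lipoprotein receptors for degradation, read 0.28 and 0.04 on the controls, -0.07 under siRNA-1 and -0.04 under siRNA-2. STARD4 (1.45 ± 0.07) and NPC1L1 (1.66 ± 0.08) rose with siRNA-2, and MYLIP did not pass (-0.19 ± 0.14, 95% interval -0.63 to 0.25). The NPC1L1 increase rests on 1 of its 3 probe sets, since the others read -0.51 and 0.23. The 6 MYLIP probe sets lay between -0.83 and -0.09 with siRNA-1 and between -0.34 and 0.46 with siRNA-2.

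**Figure D2:**
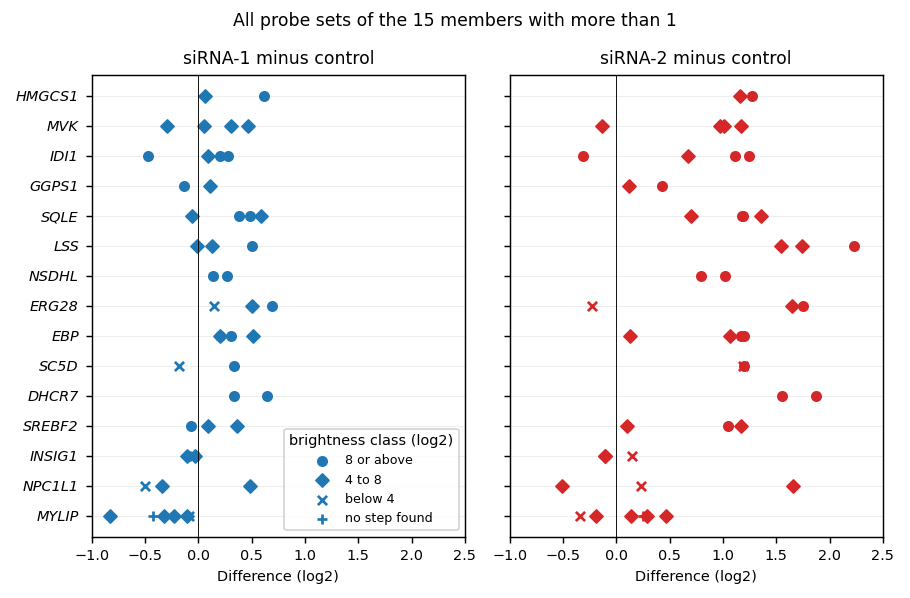
Difference from the control mean (log2) of every probe set of the 15 members that have more than 1, with siRNA-1 on the left and siRNA-2 on the right; each point is a probe set and its shape gives the brightness class. The 3 LSS probe sets lie between 1.55 and 2.22 with siRNA-2, whereas those of MVK, IDI1, ERG28 and NPC1L1 fall on both sides of 0.

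Taking every probe set of the members, 49 of 58 were above both controls with siRNA-2, against 37.7% of all 54613 probe sets. Tested one by one, 35 of 58 rose and 0 fell, against 7.56% of all 54613 probe sets that rose. Of the 32 probe sets that did not stand for a gene, 17 rose under siRNA-2, and their median was 0.75.

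With siRNA-1 no member passed (0 of 26), and neither did any of the 19775 genes (0 higher, 0%; 0 lower, 0%), although 5338 genes had an unadjusted p under 0.05. KDM1A, the silenced gene, did not pass either at -2.75 from control, so a lack of calls does not show a lack of change. The median of the members was 0.21 (1.16-fold) against 0.00 over all genes. The siRNA-1 array lay above both controls for 17 members, against 40.3% of all genes, and below both for 8, against 40%. ERG28 (0.69), HMGCS1 (0.62), MSMO1 (0.54), LSS (0.50), NPC1L1 (0.49) and SQLE (0.48) had the largest values, with adjusted p from 0.0952 to 0.109. The lowest were MVK (-0.30), INSIG2 (-0.26), MYLIP (-0.23) and PMVK (-0.15). Probe sets of the same gene differed with siRNA-1. They ran from 0.15 to 0.69 for ERG28, 0.07 to 0.62 for HMGCS1 and -0.0082 to 0.50 for LSS. For NPC1L1 they ran from -0.50 to 0.49, for SQLE from -0.06 to 0.59 and for MVK from -0.30 to 0.46. On the probe sets that stood for the genes, all 9 from lanosterol to cholesterol were above both controls and all 4 regulators below both. Other probe sets broke this split. Those of SREBF2 were above both controls (differences 0.37 and 0.09), and those of INSIG1 lay between them (-0.03 and -0.04). A dim SC5D probe set was below both (-0.18).

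**Figure D3:**
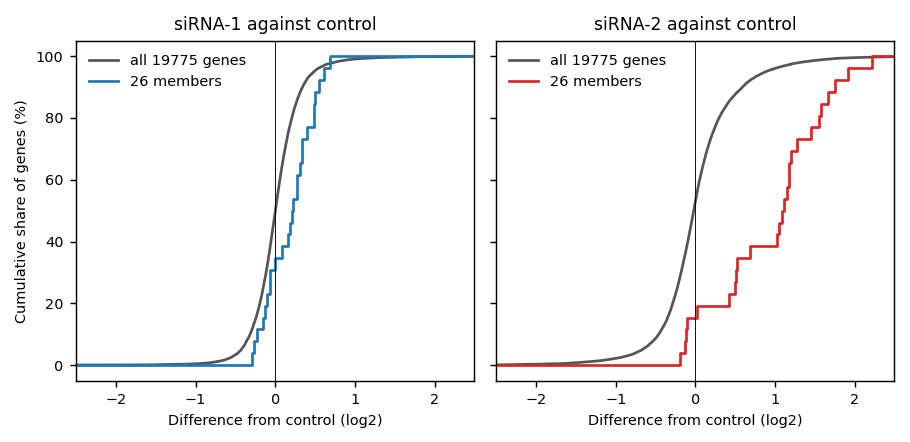
Cumulative share (%) of all genes (grey) and of the 26 measured members (coloured steps) by difference from the control mean (log2), for siRNA-1 on the left and siRNA-2 on the right. With siRNA-1 the member median is 0.21, and with siRNA-2 it is 1.10, while the median of all genes is 0.00 and -0.02.

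The difference between the siRNAs was tested in the same model. For 14 of the 26 members siRNA-2 was higher than siRNA-1, and for 0 lower, against 4.14% of all genes higher and 2.92% lower. The size was 1.72 ± 0.08 for LSS, 1.70 ± 0.09 for TM7SF2, 1.43 ± 0.08 for MVD, 1.36 ± 0.08 for STARD4 and 1.11 ± 0.10 for SREBF2, all with adjusted p = 0.0421. HMGCS1 (0.66, adjusted p = 0.0508), SQLE (0.70, 0.0533) and NSDHL (0.75, 0.0519) missed the threshold, as did MSMO1, which went the other way (-0.65, 0.0529). When each probe set was tested on its own, 0 members passed in this comparison. KDM1A itself differed from control by -2.75 with siRNA-1 and by -2.37 with siRNA-2 (standard error 0.071 for each), and its difference between the siRNAs did not pass (0.38 ± 0.08, adjusted p = 0.0902).

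The 2 LSD1 siRNA arrays as a single group against the controls gave no member past the threshold (0 of 26 by limma, 2 arrays against 2), with 1 gene higher (0.00506%) and 0 lower (0%) among all genes; 2906 genes had an unadjusted p under 0.05. The spread in this test includes the difference between the 2 siRNAs. The standard error for LSS was 0.59 here, and 0.068 for siRNA-2 in the model of 3 groups. The median of the members was 0.69 (1.61-fold) against 0.00 over all genes. The largest were LSS (1.36 ± 0.59), ERG28 (1.22 ± 0.38), NPC1L1 (1.07 ± 0.41) and TM7SF2 (1.07 ± 0.59), and adjusted p over the members ran from 0.262 for HMGCS1 to 0.785 for GGPS1. Both knockdown arrays were above both controls for 16 members, against 23.7% of all genes, and below both for 3 (MVK, INSIG1 and MYLIP), against 25.4%. In all 16 the siRNA-2 array was above the siRNA-1 array. That order, controls lowest and siRNA-2 highest, thus held for 16 of the 26 members, against 15.8% of all genes. Of the 4682 genes with both knockdown arrays above both controls, 3128 had it. The siRNA-2 array was the highest of the 4 for 22 members, against 32.2% of all genes.

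Genes next to the pathway were read from lists grouped by function. The lists were chosen with earlier results of these data known, so their counts are description and no independent support. Of 8 measured targets of the SREBP family outside the members, 8 rose and 0 fell with siRNA-2, with a median of 0.93 (0.17 under siRNA-1); the lipase gene PNPLA3 (1.89) and the fatty acid elongase ELOVL6 (1.40) had the largest values on knockdown. Of 6 genes that supply acetyl-CoA, 4 rose and 0 fell, led by the acetyl-CoA synthetase ACSS2, at 0.19 above control under siRNA-1 and 2.14 under siRNA-2. The citrate carrier SLC25A1 was 1.03 above control with siRNA-2.

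The lists further from synthesis had fewer calls. Of 7 genes of SREBP processing and sterol sensing, 2 rose and 1 fell with siRNA-2 (median 0.015), with the protease gene MBTPS2 at 0.56 and ERLIN2 at 0.71. Of 7 genes of LXR and sterol efflux, 2 rose, the sterol exporters ABCG5 (1.59) and ABCA1 (0.82), and 0 fell (median 0.29). Of 12 genes of sterol transport and esterification, 2 rose and 0 fell (median 0.18); NPC2, a lysosomal sterol carrier, was at 0.60, and SOAT1, which esterifies cholesterol, at 0.37 (adjusted p = 0.0527). Of 11 genes of the non-sterol isoprenoid branches, 1 rose and 3 fell (median -0.12), and PGGT1B, a subunit of a geranylgeranyl transferase, was at -1.03. These counts stand beside the 13.6% and 10.4% of all genes given above.

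**Figure D4:**
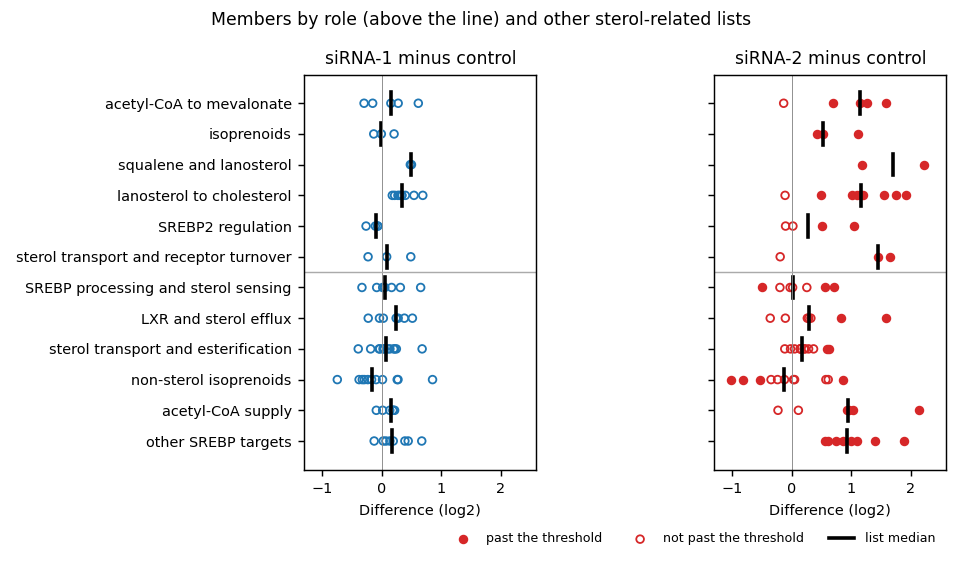
Difference from the control mean (log2) of single genes by list, for siRNA-1 on the left and siRNA-2 on the right; filled points passed the limma threshold, open points did not, and black bars are list medians. Above the line are the members by role and below it other sterol-related lists; with siRNA-2 the medians run from -0.12 to 1.70.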

How the data were processed

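RNA of HepG2 cells was measured on 4 Affymetrix HG-U133 Plus 2.0 arrays, 2 control and 2 knockdown, grouped by sample title. The deposited log2 values were made by the authors with RMA, per the submitters' processing notes; its version and the log base are not given here. The 4 arrays of each of the 54675 probe sets had a median of 0 (largest deviation 5.0e-07), so levels are gone and differences remain. Array medians ran from -0.0152 to 0.0066; the values were used without renormalizing. Arrays give no counts; their number limits the precision.

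Names came from the platform annotation, brought up to date through RefSeq gene identifiers. Of the probe sets 41097 had 1 symbol, 1801 several and 11777 none here. The 62 control probe sets, not all of them without a symbol, were left out. Brightness was inferred from the rounding step of single-precision numbers (within 0.2 of a step), which is coarser above 8 and above 4 and can put some probe sets in too bright a class. For each of 19775 genes the brightest class was taken, then probe sets without a letter suffix, then the identifier.

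Differences were tested in limma 3.58.1 under R 4.3.3 (two-sided, moderated, Benjamini-Hochberg over all genes, threshold 0.05), as 2 against 2 arrays and in a model of 3 groups. The script was tested on simulated data. Every member is named; from other lists, at most the 2 genes with the largest knockdown difference. Members and lists were chosen with earlier results of these data known. An exact permutation test of 2 against 2 arrays was not used. Promoter windows are RefSeq's, for 25 of 28 members. The alternatives are in the closing section.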

Additional observations from a re-analysis of the deposited data

Results flagged for a closer look

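A difference between the 2 LSD1 siRNAs, each against the same controls, passed the test of that difference for 14 members, all higher with siRNA-2. From acetyl-CoA to the isoprenoids these were ACAT2 (0.87 log2 units), PMVK (0.84), MVD (1.43) and IDI1 (0.90). In the sterol steps they were LSS (1.72), TM7SF2 (1.70), HSD17B7 (0.70), ERG28 (1.06), EBP (0.86), SC5D (0.86) and DHCR7 (1.22). The regulator SREBF2 (1.11) and the transport genes STARD4 (1.36) and NPC1L1 (1.17) completed the group. Each siRNA was read on 1 array, so siRNA and array cannot be told apart.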

How the results depend on the processing

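Every array limits these results, since each siRNA has 1. With both siRNAs against control the count of members past the threshold was 0, and leaving out single arrays gave 0 to 21, the 21 without the siRNA-1 array. With the replicate number as a block the count was also 0. Deviations of same-numbered arrays from their group means had r = 0.03 over 19775 genes. In the knockdown group the number and the siRNA coincide, so this value cannot show whether the arrays were paired. With siRNA-1, 1 member passed after each array was centred on its median. With siRNA-2, 21 passed, and 13 of 20 without probe sets ending in _x_at or _s_at. Between the siRNAs 14 passed, 4 without those probe sets and 0 with one test per probe set; in the other settings run the count was between 13 and 21. The single-siRNA models could not be tested without a control array, because no residual spread is left. The totals tested differ between settings, so the counts that follow are not shares of 1 total. They were 19775 genes in the main setting, 17098 without _x_at and _s_at and 14496 when dim genes were dropped. With one test per probe set the total was 54613 probe sets. Over all genes, siRNA-1 called 0 genes, 718 after median centring, 301 when dim genes were dropped and 112 with probe sets averaged; between the siRNAs 1396 became 3245 after median centring, 3408 when dim genes were dropped, 2108 with probe sets averaged, 596 without _x_at and _s_at and 0 with one test per probe set. For siRNA-2 the 4752 became 3165 without _x_at and _s_at and 7460 with one test per probe set.

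A sign turned under at least 1 alternative for 12 of the 26 measured members. With the mean of probe sets MVK read 0.44 with both siRNAs, 0.13 with siRNA-1 and 0.76 with siRNA-2, SREBF2 0.13 and NPC1L1 -0.12 with siRNA-1, and MYLIP 0.10 with siRNA-2. Without _x_at and _s_at probe sets ERG28, left with a dim one, read -0.039 with both siRNAs, -0.22 with siRNA-2 and -0.37 between the siRNAs, and with siRNA-1 GGPS1 read 0.11, SC5D -0.18 and SREBF2 0.37. Leaving out the siRNA-2 array, the knockdown difference turned for PMVK (-0.15), FDPS (-0.0058), GGPS1 (-0.13), SREBF2 (-0.064) and SCAP (-0.069), and leaving out the siRNA-1 array for MSMO1 (-0.11) and INSIG2 (0.020). Those leave-one-out ranges ran up to 0.69, 0.52, 0.43, 1.05, 0.52, 0.54 and down to -0.26. The cause of these changes was not tested beyond the probe sets and arrays named.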
